A study of Mus musculus with 16 samples.

Results

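Endothelial cells line the blood vessels of the brain, and their nuclei made up a small share of the single-nucleus RNA-Seq survey of the medial prefrontal cortex (PFC) described here. A nucleus was taken as endothelial when it had at least 3 UMIs (unique molecular identifiers, which count captured RNA molecules) summed over Flt1, Cldn5, Slco1a4, Adgrl4, Pecam1, and Abcb1a, with at least 2 of these genes detected. It was also required to have at most 1 UMI of the neuronal genes Slc17a7, Gad1, and Gad2, and at most 1 UMI summed over Aqp4, Mag, Mog, Csf1r, P2ry12, Vtn, and Col1a2, which mark astrocytes, oligodendrocytes, microglia, pericytes, and fibroblasts. Of 114512 nuclei, 334 met this rule (0.292%). The marker limits alone were met by 524 nuclei, of which 95 were left out for neuronal UMIs, 53 for UMIs of the other cell types, and 42 for both. Just inside the rule stood 35 nuclei with exactly 3 marker UMIs and 28 with 4, and just outside it 45 nuclei with 2 UMIs of 2 marker genes and 7 nuclei with 3 or more UMIs of a single marker gene. The median endothelial nucleus had 8 marker UMIs, and the highest had 64.

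The nuclei came from 16 male mice of 22 weeks in 4 groups of 4. WT controls were of the B6;129 strain. 3xTg-AD mice, on the same background, carry human APP and tau transgenes with disease mutations, expressed from a neuronal promoter, and a mutant presenilin 1 knockin. The WT alcohol and 3xTg-AD alcohol mice received repeated cycles of intermittent alcohol vapor after injection of ethanol and pyrazole, an inhibitor of alcohol dehydrogenase, and the controls of both genotypes received pyrazole in saline and air. All 4 groups therefore carried pyrazole, and the human transgenes were not analysed here.

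The endothelium of the brain forms the blood-brain barrier. Its cells are joined by tight junctions, carry out little transcytosis, and move glucose, amino acids, thyroid hormone, and lipids through dedicated transporters while efflux pumps return drugs to the blood. Wnt signaling through beta-catenin keeps this barrier program on, and endothelial cells answer interferons and circulating inflammatory signals by raising MHC class I and other defense genes.

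Each mouse gave between 9 and 38 endothelial nuclei out of 4955 to 9096, and between 13229 and 64905 UMIs summed over them, 482379 in all. An endothelial nucleus had a median of 1096 UMIs and 811.5 genes, against 1545 UMIs in all other nuclei. 3xTg-AD alcohol mouse 34, with 9 nuclei, was left out of the tests of single genes and kept in the levels. The ribosomal RNA-like transcript Gm42418 took 5.75%, 5.55%, and 3.79% of the endothelial UMIs in WT controls 26 and 27 and in 3xTg-AD mouse 12, and between 0.412% and 1.23% in the other 13 mice. These 3 libraries stood apart, and values without them are given below for the called genes. Where the Gm42418 share is named as a covariate, it is the centered log2 share of all UMIs of a mouse, from endothelial and other nuclei. In those UMIs Gm42418 stood at 3807 to 29046.5 CPM in WT controls and 2059 to 3232 CPM in 3xTg-AD alcohol mice, without overlap. The covariate thus follows the group in that comparison. A smaller difference or a lost call in a fit with it cannot tell the group and the Gm42418 share apart. No barcode was shared between the endothelial nuclei of different libraries, and 12 of the 334 had a barcode that also occurred in another library of the table.

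The genes of the rule are described first, without a test, because they chose the nuclei. Flt1, a receptor and decoy for VEGF, was detected in 86.8% of the endothelial nuclei at 2494 CPM (UMIs per 1000000 of their summed UMIs), against 6.32 CPM in all other nuclei. Cldn5, the main claudin of the blood-brain barrier, was detected in 80.8% of them at 2083 CPM, and Slco1a4, an organic anion transporter, in 84.1% at 1802 CPM. Abcb1a, the efflux pump P-glycoprotein, stood at 644.7 CPM, Adgrl4, an adhesion G protein-coupled receptor, at 545 CPM, and Pecam1, a junctional adhesion molecule, at 272 CPM. Of the 334 nuclei, 34 showed UMIs of all 6 markers, 54 of 5, 96 of 4, 99 of 3, and 51 of 2. By group, scaled by the trimmed mean of M-values (TMM) as are all levels per mouse below, Flt1 averaged 2333 ± 301.5 CPM in WT controls, 2510.0 ± 411.9 with alcohol, 3261 ± 1290.0 in 3xTg-AD mice, and 2084 ± 426.3 with both (mean ± SD, n = 4 each).

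The label held up against markers that the rule did not use. All 22 endothelial markers outside the rule were detected, at least 1 of them in 326 of the 334 nuclei, and their sum stood at 8607 CPM against 87.5 in the other nuclei. At least 1 of 8 glutamatergic markers was also detected in 325 nuclei, and at least 1 of 8 astrocyte markers in 313. The number of nuclei with a UMI therefore does not set the endothelial list apart, and the levels do. Every one of the 22 had a higher pooled level in the endothelial nuclei. Among genes outside the rule with at least 100 UMIs, the highest ratio of the endothelial level to that of all other nuclei belonged to Mecom, a zinc finger transcription factor, with 587 CPM against 1.47 (400-fold), detected in 49.4% of the nuclei. Hmcn1, an extracellular matrix protein, followed at 266-fold, and Adgrf5, an adhesion receptor, at 262-fold. Ly6c1, a surface antigen of brain endothelium in mice, stood at 1750 CPM against 7.29 and was detected in 68.6% of the nuclei. Pltp, the phospholipid transfer protein, stood at 1424 CPM and was detected in 71.0%. Ptprb, the endothelial phosphatase that restrains Tie2, was found at 744 CPM, and the flow-induced factor Klf2 at 512 CPM. Ctla2a, Ly6a, Nostrin, Itm2a, Hspb1, Rgs5, Tm4sf1, and Eng completed the 15 leading genes, with ratios from 112 for Eng to 215 for Ctla2a. Of the 15, Tm4sf1 was higher than in the other nuclei in 15 of the 16 mice and the remaining 14 in 16 of 16. These ratios describe nuclei chosen for their endothelial markers and were not tested.

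**Figure D1:**
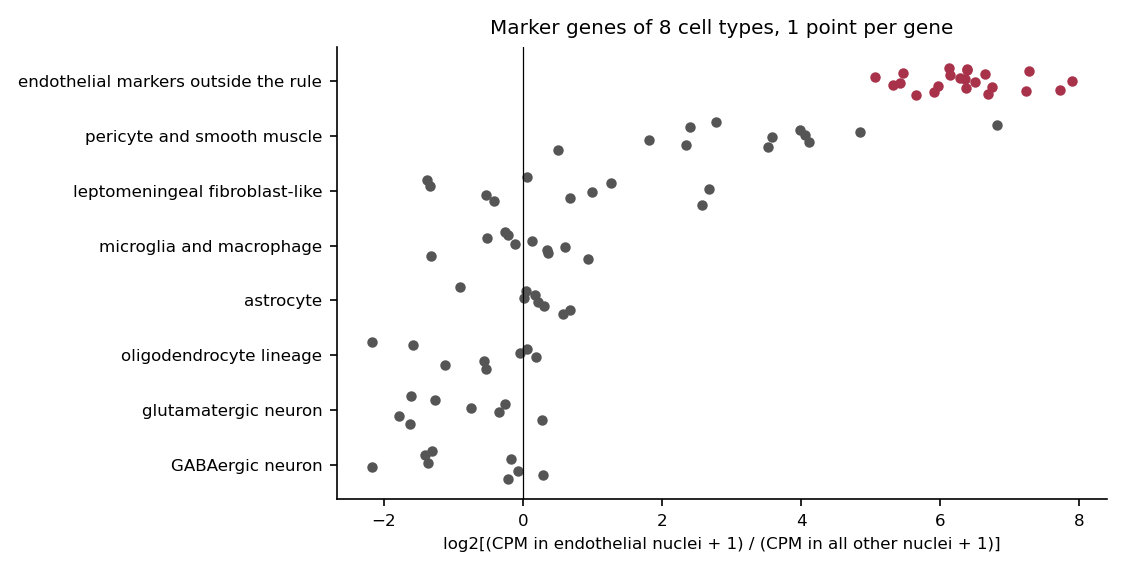
Level of each marker gene in the endothelial nuclei over its level in all other nuclei, as log2 of (CPM + 1) ratios, with 1 point per gene, grouped by the cell type the gene marks. The endothelial markers outside the rule lie far above 0, and pericyte markers are spread up to the point of Rgs5. The endothelial genes of the rule are not drawn. The points of neurons, glia, pericytes, and fibroblasts include the 10 genes that the rule limits, so their position is affected by the rule.

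Among markers of other cell types, the pericyte list stood out. The 12 pericyte and smooth muscle markers summed to 1389 CPM against 50.1, of which Rgs5, a regulator of G protein signaling, made up 949 CPM. Rgs5 was detected in 164 endothelial nuclei (49.1%), and 126 nuclei (37.7%) had Rgs5 but no UMI of Pdgfrb, Kcnj8, Abcc9, or Atp13a5. In 164 nuclei chosen by mural markers for comparison, Rgs5 stood at 629.7 CPM, below the endothelial level, whereas the receptor Pdgfrb stood at 1174 CPM against 64.3 and Atp13a5 at 1339 against 78.8. Those nuclei were chosen by Vtn, Rgs5, Pdgfrb, Kcnj8, Abcc9, and Atp13a5 and for few UMIs of the endothelial markers. Their levels of these genes are set by that choice and are a description. In all, 47 endothelial nuclei (14.1%) had a UMI of Pdgfrb, Kcnj8, Abcc9, or Atp13a5, against 2.42% of the other nuclei. The lists of other cell types hold the 10 genes that the rule limits, and the limits also remove nuclei rich in the other genes of these lists, so the sums are a description. Without the limited genes, the astrocyte list summed to 3569.8 CPM against 2632 in the other nuclei, the microglia list to 201 against 154, the oligodendrocyte list to 711 against 818, the glutamatergic list to 3399.8 against 4772, and the GABAergic list to 419 against 534. The fibroblast list summed to 70.5 CPM against 21.8 without Col1a2, and with it was detected in 20 nuclei, with Col1a1, Lum, Eya2, and Col3a1 at 0, and the macrophage marker Mrc1 was at 0. Of the astrocyte sum, Apoe alone gave 2050 CPM against 1285 in the other nuclei, and Slc1a2 gave 1153 against 1019. The remaining astrocyte markers outside the rule stood at 1.01 (Slc1a3) to 1.52 (Gfap) times the other nuclei. RNA of genes on the neuronal and astrocyte lists was thus measured in the endothelial nuclei, and its part in the results below was not tested.

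Transporters of the blood-brain barrier were detected in the endothelial nuclei. Slc2a1, the glucose transporter GLUT1, stood at 808 CPM against 12.5 in all other nuclei and was detected in 59.0% of the endothelial nuclei. Slco1c1, which carries thyroid hormone, stood at 952 CPM against 20.7 (61.4% of nuclei). Abcg2, an efflux pump, stood at 632 CPM against 13.5. Slc7a5, the large neutral amino acid transporter, stood at 413 CPM against 14.7, and Mfsd2a, the lipid carrier that also holds transcytosis down, at 187 CPM against 8.07. Slc22a8, an organic anion carrier, and the iron exporter Slc40a1 stood at 118 and 151 CPM against 2.25 and 5.12. Tfrc, the transferrin receptor, is also used by other brain cells, and its 582.5 CPM were 5.67 times the level of the other nuclei. Of the 29 listed transporters in the table, all but 2, Abcc1 and Atp8a1, had a higher pooled level in endothelial than in other nuclei.

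Junction genes of brain endothelium were detected. Ocln (occludin) stood at 109.9 CPM against 0.680 in the other nuclei, Cdh5 (VE-cadherin) at 151 against 0.823, Esam, an adhesion molecule, at 279.9 against 2.96, and Lsr, the tricellular junction protein, at 120.2 against 1.47. Tjp1 (ZO-1) and Ctnnb1 (beta-catenin), which most cells use, stood at 371 and 423 CPM, or 4.76 and 3.12 times the other nuclei. Cldn1 had no UMI in any of the 334 nuclei, and at this depth a count of 0 allows a share of endothelial nuclei with a Cldn1 UMI of up to 0.898%, for counting error alone. Plvap, the diaphragm protein of fenestrated endothelium, had 1 UMI. The caveolar genes Cav1 and Cavin1 were present at 128.5 and 120.2 CPM, 54.9 and 65.8 times the other nuclei.

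Receptors and transcription factors of the vessel wall were also detected. Kdr, the main signaling receptor for VEGF, stood at 187 CPM against 1.24, and the angiopoietin receptor Tek and its partner Tie1 at 133 and 116 CPM against 0.916 and 0.504. Id1, a target of BMP signaling, stood at 715 CPM against 9.46. Of the Wnt pathway genes, Lef1, the nuclear partner of beta-catenin, stood at 187 CPM against 1.76, Apcdd1, a Wnt target, at 272 against 8.36, and Fzd6, a Frizzled receptor, at 106 against 1.51. Foxq1, Sox17, and Erg, transcription factors of endothelial cells, stood at 124, 153, and 49.8 CPM, with ratios of 181, 307, and 326. Epas1, the hypoxia-inducible factor HIF-2alpha, was detected at 789.8 CPM against 14.7. Mef2c and Tcf4, which act in endothelial cells but also in neurons, were not higher here, with 885 CPM against 1434 and 746 against 766. Icam2 stood at 114 CPM against 0.388, whereas the chemokine gene Ccl2 and the ethanol-oxidizing enzyme gene Cyp2e1 had no UMI.

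Genes of single vessel segments were found in few nuclei. Arterial genes (Bmx, Gkn3, or Sema3g) were detected in 14 nuclei (4.19%) of 6 mice, against 0.0806% of the other nuclei. Venous genes (Slc38a5 or Lcn2) were detected in 13 nuclei (3.89%) of 7 mice, against 0.0946%. Mfsd2a, which marks capillaries, was detected in 69 nuclei (20.7%) of all 16 mice, against 1.44%. Of these nuclei, 1 showed both arterial and venous genes and 4 showed arterial genes together with Mfsd2a. The 15 UMIs of Bmx lay in 4 nuclei of WT alcohol mouse 6 and in no other mouse, so its level in that group rests on 1 library. A segment could therefore not be assigned to most nuclei at this depth.

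Hemoglobin transcripts were unevenly spread over the endothelial nuclei and mice. The genes Hbb-bs, Hbb-bt, Hba-a1, and Hba-a2, made in red blood cells, gave 14026 UMIs and were detected in 177 of the 334 nuclei (53.0%), against 40.6% of the other nuclei. Hbb-bs stood at 16052 CPM in the endothelial nuclei against 199.8 in the others. A single nucleus held 5179 of these UMIs (36.9%), and the 10 highest nuclei held 83.0%. By mouse, hemoglobin took 14.2% of the endothelial UMIs in 3xTg-AD alcohol mouse 31, 9.29% in WT control 36, 5.24% in 3xTg-AD mouse 13, 4.47% in WT control 27, and at most 1.68% in the other 12 mice, with none in 3xTg-AD alcohol mouse 34. High and low mice occurred in every group except the WT alcohol mice, which were all below 1%. The genes that edgeR called in the main fits below were also called by edgeR when the hemoglobin genes were left out before scaling. This alternative was chosen after seeing the data, and no such fit was run with DESeq2.

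The share of endothelial nuclei was compared first across the groups. It was 0.544%, 0.383%, 0.272%, and 0.325% of nuclei in WT controls 26, 27, 28, and 36. It was 0.382%, 0.245%, 0.156%, and 0.214% in WT alcohol mice 6, 7, 17, and 18. It was 0.341%, 0.251%, 0.307%, and 0.318% in 3xTg-AD mice 12, 13, 14, and 21, and 0.297%, 0.278%, 0.198%, and 0.182% in 3xTg-AD alcohol mice 4, 31, 33, and 34. The ranges of all 4 groups overlapped. WT control 26 had the highest share, with an exact 95% binomial interval of 0.385% to 0.746%, and WT alcohol mouse 17 the lowest, with 0.078% to 0.279%, and these intervals cover counting error alone. Group means were 0.381 ± 0.118%, 0.249 ± 0.0958%, 0.304 ± 0.0382%, and 0.239 ± 0.0575% (mean ± SD, n = 4 each, in the same order).

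**Figure D2:**
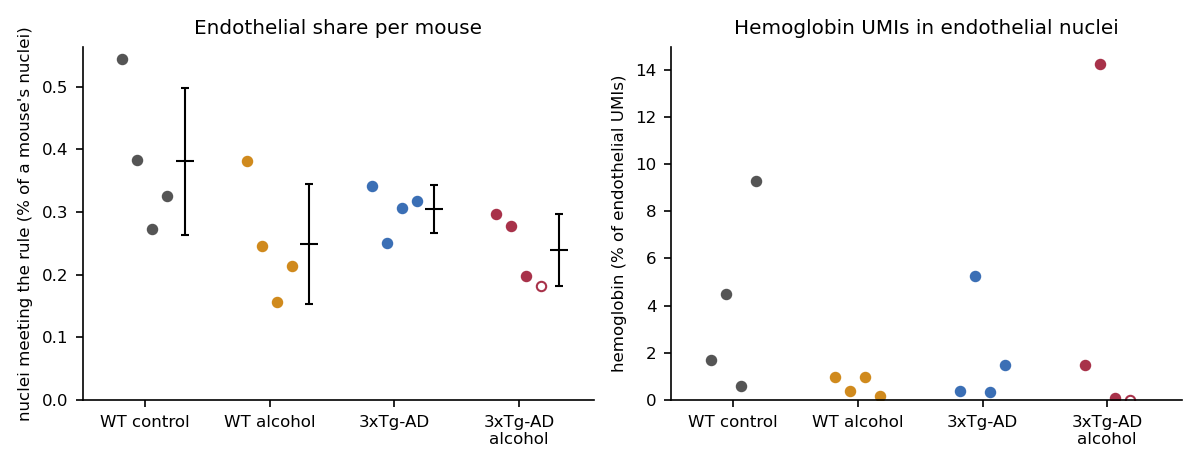
Left, endothelial nuclei as a percent of all nuclei of a mouse, with 1 point per mouse and the mean ± SD of 4 mice per group. Right, hemoglobin UMIs as a percent of the endothelial UMIs of each mouse. The open circle is 3xTg-AD alcohol mouse 34, with 9 nuclei. The shares overlap between groups, and hemoglobin is high in some mice of 3 groups.

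No difference in share passed the threshold after adjustment over the 7 comparisons made. The share was lower by 0.142 percentage points in 3xTg-AD alcohol mice than in WT controls, -0.142 (exact permutation test, two-sided, p = 0.0857, adjusted 0.25), where the smallest p that 4 against 4 mice allow is 0.0286. It was -0.088 points without WT control 26, the mouse with the highest share, -0.178 to -0.123 without any other single mouse, and -0.0598 among nuclei with 0 UMIs of the excluded markers. Averaged over genotype, the 8 mice exposed to alcohol had a share of 0.244 ± 0.0733% against 0.343 ± 0.0907% in the 8 unexposed mice, a difference of -0.0987 points (exact permutation test, two-sided, p = 0.0238, adjusted 0.166). That difference was -0.0451 points with at least 5 marker UMIs per nucleus. It ranged from -0.118 to -0.0699 points without 1 mouse and passed the threshold in 1 of those 16 comparisons (exact permutation test, adjusted p = 0.0239). By genotype, the 8 3xTg-AD mice had 0.271 ± 0.0572% against 0.315 ± 0.122% in the 8 WT mice (exact permutation test, p = 0.394, adjusted 0.459), a difference of -0.0436 points that ranged from -0.0663 without WT alcohol mouse 17 to -0.0109 without WT control 26. The share depends on how many UMIs a nucleus has, and with each of 78542 nuclei thinned to 1000 UMIs the group means were 0.351 ± 0.224%, 0.251 ± 0.0776%, 0.249 ± 0.00276%, and 0.247 ± 0.0621% (n = 4 each, in the same order). A lower share of nuclei and a lower yield of marker RNA per nucleus cannot be told apart here, since the markers chose the nuclei.

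Gene expression was then tested on the endothelial UMIs summed per mouse, in 15 mice, with edgeR's quasi-likelihood test. Of 499 genes that passed the filter on low counts, 494 lay outside the rule. A gene could pass on the level of 1 group, so that counts over lists of tested genes are a description. In 3xTg-AD alcohol mice relative to WT controls 3 of the 494 genes passed an adjusted p of 0.05 (0.607%) and are called here, in 3xTg-AD mice relative to WT controls 1 (0.202%), in 3xTg-AD alcohol mice relative to WT alcohol mice 2 (0.405%), and by genotype averaged over alcohol 3 (0.607%). The first 2 of these comparisons share the WT controls, and the third shares its 3xTg-AD alcohol mice with the first. The genes called by edgeR were Tmsb4x, Ifitm3, Map1a, and Gpm6b. DESeq2 called Tmsb4x higher and Bc1 and Gm42418 lower in the first of these comparisons, and did not call Ifitm3 or Map1a. Without the 3 libraries high in Gm42418, DESeq2 called Tmsb4x and AC149090.1 in that comparison, and Bc1 and Gm42418 stood at -0.89 and -1.06 (DESeq2 adjusted p = 0.613 and 0.115). With all 15 mice it called no gene in the second, Tmsb4x and Ifitm3 in the third, and Tmsb4x, Gpm6b, and Rpl29 by genotype, where it did not call Ifitm3.

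Tmsb4x, thymosin beta-4, which binds actin monomers and is abundant in endothelial cells, had the smallest edgeR adjusted p in every comparison of the genotypes. Between the genotypes exposed to alcohol Ifitm3 shared that value, and DESeq2 ranked Ifitm3 first (DESeq2 adjusted p = 0.0128 against 0.0208 for Tmsb4x). Tmsb4x lies on chromosome X at chrX:167207093-167209315, minus strand (GRCm38). Its level was 2747, 3927, 3770.0, and 3750.0 CPM in WT controls 26, 27, 28, and 36, and 4615, 4301, 3236, and 3145 CPM in WT alcohol mice 6, 7, 17, and 18. It was 5627, 7757, 8576, and 8083 CPM in 3xTg-AD mice 12, 13, 14, and 21, and 9327, 7449, 9236, and 9912 CPM in 3xTg-AD alcohol mice 4, 31, 33, and 34. All 8 3xTg-AD mice were above all 8 WT mice, with no overlap. By genotype Tmsb4x rose by 1.12 ± 0.15 on the log2 scale (± SE, edgeR adjusted p = 5.12e-06), and in 3xTg-AD alcohol mice relative to WT controls by 1.28 ± 0.22 (edgeR adjusted p = 0.00066). It also rose in 3xTg-AD mice relative to WT controls, by 1.05 ± 0.21 (edgeR adjusted p = 0.00738, called in 11 of 15 fits that left out 1 mouse), and between the genotypes exposed to alcohol, by 1.19 ± 0.22 (edgeR adjusted p = 0.00155). The call in 3xTg-AD mice relative to WT controls was held in 7 of 10 alternative fits (edgeR adjusted p up to 0.525). Without the 3 libraries high in Gm42418 the change by genotype was 1.13 (edgeR adjusted p = 6.12e-09). Relative to WT controls, the call in 3xTg-AD alcohol mice was lost with at least 5 marker UMIs per nucleus (1.19, edgeR adjusted p = 0.059) and with the Gm42418 share as a covariate (0.98, edgeR adjusted p = 0.141). Between the genotypes exposed to alcohol it was lost with at least 5 marker UMIs (edgeR adjusted p = 0.166) and with 0 UMIs of the excluded markers (edgeR adjusted p = 0.168). The differences with alcohol were within the spread between mice, with 0.09 ± 0.21 in WT mice (edgeR adjusted p = 0.992) and 0.23 ± 0.22 in 3xTg-AD mice (edgeR adjusted p = 0.795).

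A change of Tmsb4x was also measured outside the endothelial nuclei. In all other nuclei of the same mice its level was 2932 CPM in 3xTg-AD and 1514 CPM in WT mice, a change by genotype of 1.05 on the log2 scale (edgeR adjusted p = 0.00021), and the change differed between endothelial and other nuclei by 0.06 (edgeR adjusted p = 0.9996). The level itself was higher in the endothelial nuclei, with 5662 against 2253 CPM over all mice, in 16 of 16 mice. Of 7 tested of the 19 listed thymosins and actin genes, Tmsb4x alone was called by genotype, against 3 of all 494 genes (0.607%). Tmsb10 stood at 0.26 ± 0.34 by genotype (edgeR adjusted p = 0.976) and Actb at 0.23 ± 0.17 (edgeR adjusted p = 0.861).

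Gpm6b, a membrane glycoprotein of neurons and glia, was called by genotype and lies on the same chromosome, at chrX:166238911-166388988, plus strand, 818105 bp from Tmsb4x. Its level was 446.5, 336.6, 532.3, and 333.4 CPM in WT controls 26, 27, 28, and 36, and 312.6, 400.1, 117, and 530.0 CPM in WT alcohol mice 6, 7, 17, and 18. It was 857.1, 584.5, 678.1, and 1054 CPM in 3xTg-AD mice 12, 13, 14, and 21, and 667.9, 1025, 490.4, and 227 CPM in 3xTg-AD alcohol mice 4, 31, 33, and 34. The 4 unexposed 3xTg-AD mice lay above all WT mice, and the mice exposed to alcohol overlapped. By genotype the difference was 1.03 ± 0.24 on the log2 scale (edgeR adjusted p = 0.027), against 0.96 in all other nuclei (edgeR adjusted p = 1.04e-05). The endothelial call was held in 8 of 15 fits that left out 1 mouse (edgeR adjusted p up to 0.192), and without the 3 libraries high in Gm42418 the difference was 0.99 (edgeR adjusted p = 0.105). DESeq2 called Gpm6b by genotype with all 15 mice (DESeq2 adjusted p = 0.0137) but not without these libraries (0.96, DESeq2 adjusted p = 0.757). The endothelial level of Gpm6b was 0.689 times that of the other nuclei.

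The genes around Tmsb4x and Gpm6b were examined after these values had been seen, as a description. Among 345 genes of chromosome X with at least 10 CPM in the other nuclei, 12 neighbors from Gemin8 to Mid1 (chrX:166170454-170005736) had log2 ratios of 3xTg-AD over WT mice between 0.58 and 1.38, with a median of 0.97. The limits of this interval were set from these ratios, so that its contrast with the genes outside follows from the choice. The 333 genes outside had a median of -0.02, with a 5th to 95th percentile range of -0.24 to 0.20, and 2 of them were above 0.5. In 7 of the 12 neighbors (Gpm6b, Ofd1, Trappc2, Rab9, Frmpd4, Msl3, and Hccs) every 3xTg-AD mouse was above every WT mouse in the other nuclei, and in none of the 333. In the endothelial nuclei, 8 of the 12 had at least 10 UMIs, and all 8 had a ratio above 0, with a median of 1.03, against 92 of 235 genes outside the interval, with a median of -0.12. Without Tmsb4x and Gpm6b, the remaining 10 genes summed to 213 to 588 CPM in the endothelial nuclei of 3xTg-AD mice (97 UMIs, median 408 CPM) and 105 to 416 CPM in those of WT mice (62 UMIs, median 233 CPM), and the ranges overlapped. In the other nuclei the same sums were 363 to 421 CPM and 166 to 218 CPM, without overlap. The transgenes and any other difference between the mouse lines, such as one linked to this interval, cannot be told apart here.

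**Figure D3:**
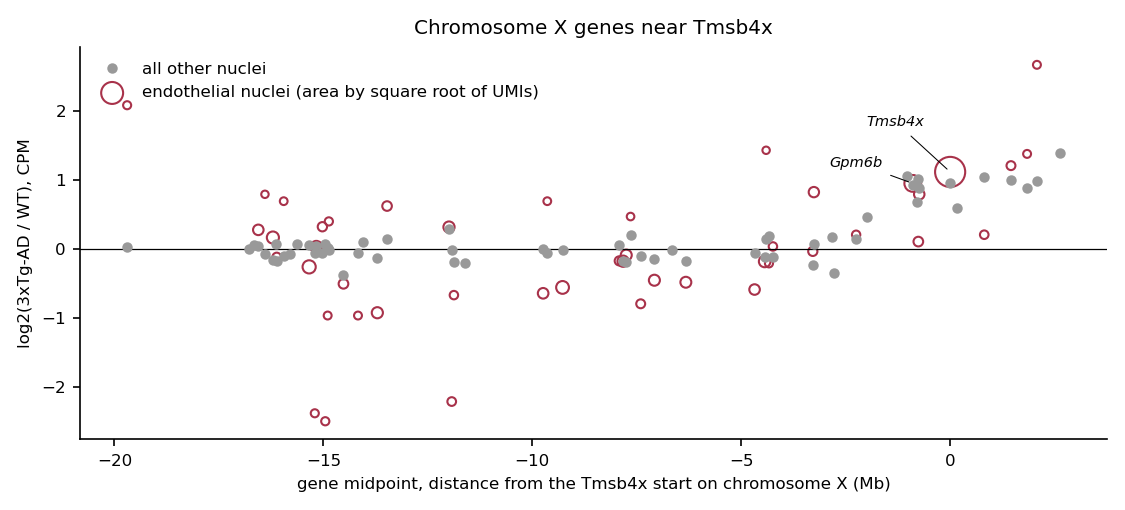
Log2 ratio of the level in 3xTg-AD over WT mice for genes of the Tmsb4x end of chromosome X, against the distance of the gene midpoint from the start of Tmsb4x in Mb. Grey points are all other nuclei, and open red points are endothelial nuclei, with an area set by the square root of their UMIs. The genes within a few Mb of Tmsb4x lie between 0.58 and 1.38 in the other nuclei, and most genes farther away lie around 0 in those nuclei.

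Genes of innate immunity and antigen presentation were examined next, of which Ifitm3 was called in 3xTg-AD alcohol mice relative to WT controls. The study had chosen 6 of them on these samples (Ifitm3, B2m, H2-K1, H2-D1, Ly6a, and Ly6c1), so their direction is not independent evidence. Ifitm3 encodes an interferon-induced membrane protein that blocks the entry of viruses, H2-K1 and H2-D1 encode MHC class I heavy chains, and B2m encodes the light chain that both need. Ly6a and Ly6c1 are surface antigens. H2-K1 and H2-D1, Ly6a and Ly6c1, and Ifitm3 and Ifitm2 share near-identical stretches, and how reads of such pairs were counted is not given in the sources used here.

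The promoters of 3 of these genes are shown because they hold the letters that MHC class I promoters are known for. In B2m (chr2:122147437-122147685, plus strand, GRCm38.p6, from RefSeq), the capitals mark the core of an interferon-stimulated response element (GAAA, 2 bases, GAAA), which starts 139 bases before the RefSeq start, 1 base downstream of the start of the GENCODE gene. In H2-K1 (chr17:34000348-34000597, minus strand) and H2-D1 (chr17:35262923-35262952, plus strand, of which 30 bases are shown), the capitals mark an NF-kB element (4 G, ATT, 4 C) and an interferon regulatory factor site (AAGTGAAA, read here on the opposite strand). Counted from the RefSeq start, they begin 111 and 90 bases before it in H2-K1 and 171 and 150 bases before it in H2-D1. The GENCODE gene span of H2-D1 given below begins farther upstream, so that the stretch shown lies inside that span.
B2m: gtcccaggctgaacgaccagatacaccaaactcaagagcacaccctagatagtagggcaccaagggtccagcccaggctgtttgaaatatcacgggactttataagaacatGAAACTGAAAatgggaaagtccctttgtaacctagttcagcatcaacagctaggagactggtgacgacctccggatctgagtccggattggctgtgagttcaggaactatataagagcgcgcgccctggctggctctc
H2-K1: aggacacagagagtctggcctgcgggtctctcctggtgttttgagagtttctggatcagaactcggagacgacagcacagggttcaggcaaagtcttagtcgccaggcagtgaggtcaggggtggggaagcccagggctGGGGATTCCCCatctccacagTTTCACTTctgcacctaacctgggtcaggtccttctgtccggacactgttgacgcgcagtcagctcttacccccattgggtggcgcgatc
H2-D1: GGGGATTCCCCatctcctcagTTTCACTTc
On either strand, the response element core was found in 2.98% of 32851 promoter windows of RefSeq genes, the interferon regulatory factor site in 1.36%, and the NF-kB element in 0.0304%, that is in 10 windows. The windows of Ifitm3 and Ly6c1 held none of these letters, and 5 of 7 genes looked up had a window. The motifs were chosen after the sequences had been seen, and a match is not evidence that a factor was bound.

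Ifitm3 (chr7:141009586-141010770, minus strand) was the one gene of this group that was called. The gene passed the filter on low counts only with libraries of 3xTg-AD alcohol mice, where its level was high. The calls of Ifitm3 below are therefore a description. Its level was 137.4, 261.8, 487.9, and 291.7 CPM in WT controls 26, 27, 28, and 36, and 91.9, 250.1, 155.9, and 318 CPM in WT alcohol mice 6, 7, 17, and 18. It was 298.1, 318.8, 438.8, and 319.5 CPM in 3xTg-AD mice 12, 13, 14, and 21, and 667.9, 941.5, 613, and 2119 CPM in 3xTg-AD alcohol mice 4, 31, 33, and 34. The 4 3xTg-AD alcohol mice lay above the other 12 mice. In these mice Ifitm3 rose by 1.48 ± 0.36 on the log2 scale relative to WT controls (edgeR adjusted p = 0.0477) and by 2.001 ± 0.382 relative to WT alcohol mice (edgeR adjusted p = 0.00155). By genotype, averaged over alcohol, the difference was 1.17 ± 0.28 (edgeR adjusted p = 0.027). Without alcohol, Ifitm3 averaged 343.8 ± 64.1 CPM in 3xTg-AD mice and 294.7 ± 145.1 CPM in WT controls (mean ± SD, n = 4 each). That difference was not called by edgeR or DESeq2 (0.323, DESeq2 adjusted p = 0.997). In 3xTg-AD alcohol mice relative to 3xTg-AD mice the difference was 1.14 ± 0.35 (edgeR adjusted p = 0.488). The interaction of genotype and alcohol was 1.67 ± 0.56 (edgeR adjusted p = 0.638), so that the response to alcohol was not shown to differ between genotypes. The first call rested on single libraries, with 1.10 (edgeR adjusted p = 0.332) without WT control 26 and 0.935 without the 3 libraries high in Gm42418, and Ifitm3 was called in 5 of 15 fits that left out 1 mouse. The second call was lost without WT alcohol mouse 6 (1.60, edgeR adjusted p = 0.126). The call by genotype was held in 6 of 15 such fits (edgeR adjusted p up to 0.236), and was lost without the 3 libraries (0.93, edgeR adjusted p = 0.242). In all other nuclei Ifitm3 rose by 1.88 relative to WT controls (edgeR adjusted p = 0.00464).

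B2m (chr2:122147686-122153083, plus strand) did not pass the threshold. Its level was 223.2, 224.4, 310.5, and 250.02 CPM in WT controls 26, 27, 28, and 36, and 247.3 to 311.9 CPM in WT alcohol mice. It was 186.3, 371.9, 438.8, and 287.5 CPM in 3xTg-AD mice 12, 13, 14, and 21, and 620.2, 803, 245.2, and 756.7 CPM in 3xTg-AD alcohol mice 4, 31, 33, and 34. Of the 4 last, 3 lay above every other mouse, and mouse 33 lay within the range of the WT controls. The difference from WT controls was 1.22 ± 0.35 on the log2 scale (edgeR adjusted p = 0.103). Without 1 mouse it ranged from 0.909 to 1.51, and 1 of 15 such fits called B2m (edgeR adjusted p = 0.0136).

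H2-K1 (chr17:33996017-34000347, minus strand) stood at 85.9, 187, 133.1, and 250.02 CPM in WT controls 26, 27, 28, and 36, and at 386.1, 50.02, 233.9, and 318 CPM in WT alcohol mice 6, 7, 17, and 18. It stood at 260.9, 318.8, 159.6, and 415.3 CPM in 3xTg-AD mice 12, 13, 14, and 21, and at 596.3, 443, 245.2, and 605.3 CPM in 3xTg-AD alcohol mice 4, 31, 33, and 34. The groups overlapped, and the difference of the last group from WT controls was 1.55 ± 0.48 (edgeR adjusted p = 0.151). H2-D1 (chr17:35262730-35267499, plus strand) averaged 243 ± 52.1, 346 ± 127, 391 ± 187, and 672 ± 381 CPM in WT controls, WT alcohol mice, 3xTg-AD mice, and 3xTg-AD alcohol mice (mean ± SD, n = 4 each). Its difference from WT controls in the last group was 1.07 ± 0.38 (edgeR adjusted p = 0.247). The 4 3xTg-AD alcohol mice, with 667.9, 443, 367.8, and 1211 CPM, lay above the 4 WT controls, which had 187 to 310.5 CPM. They overlapped the WT alcohol mice, with 155.9 to 424 CPM, and the 3xTg-AD mice, with 149.1 to 584.5 CPM. The 1211 CPM were those of mouse 34, which was outside the fit.

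Ly6a averaged 464 ± 69.0, 481 ± 130.0, 451 ± 299, and 1234 ± 743 CPM in the same order, and the difference of the last group from WT controls was 0.98 ± 0.36 (edgeR adjusted p = 0.266). Ly6c1 averaged 1423 ± 313, 1741 ± 321, 1614 ± 557, and 2336 ± 570.3 CPM, with a difference of 0.65 ± 0.25 (edgeR adjusted p = 0.292). Mouse 34, outside the fit, had the highest Ly6a of all mice at 2270.0 CPM. With the Gm42418 share as a covariate, which did not overlap between these groups, the differences from WT controls were smaller. They were 0.58 for B2m, 0.31 for H2-D1, 0.20 for Ly6a, and 0.07 for Ly6c1. Ly6a stood at 0.64 without 3xTg-AD alcohol mouse 31, and Ly6c1 at 0.40 without the 3 libraries high in Gm42418 and at 0.10 with 0 UMIs of the excluded markers. For none of these 6 genes did the test of a different change in endothelial and other nuclei pass the threshold in this comparison (edgeR, each adjusted p = 0.996), and that fit called 0 of 494 genes (0.0%), with 15 at an unadjusted p under 0.05.

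**Figure D4:**
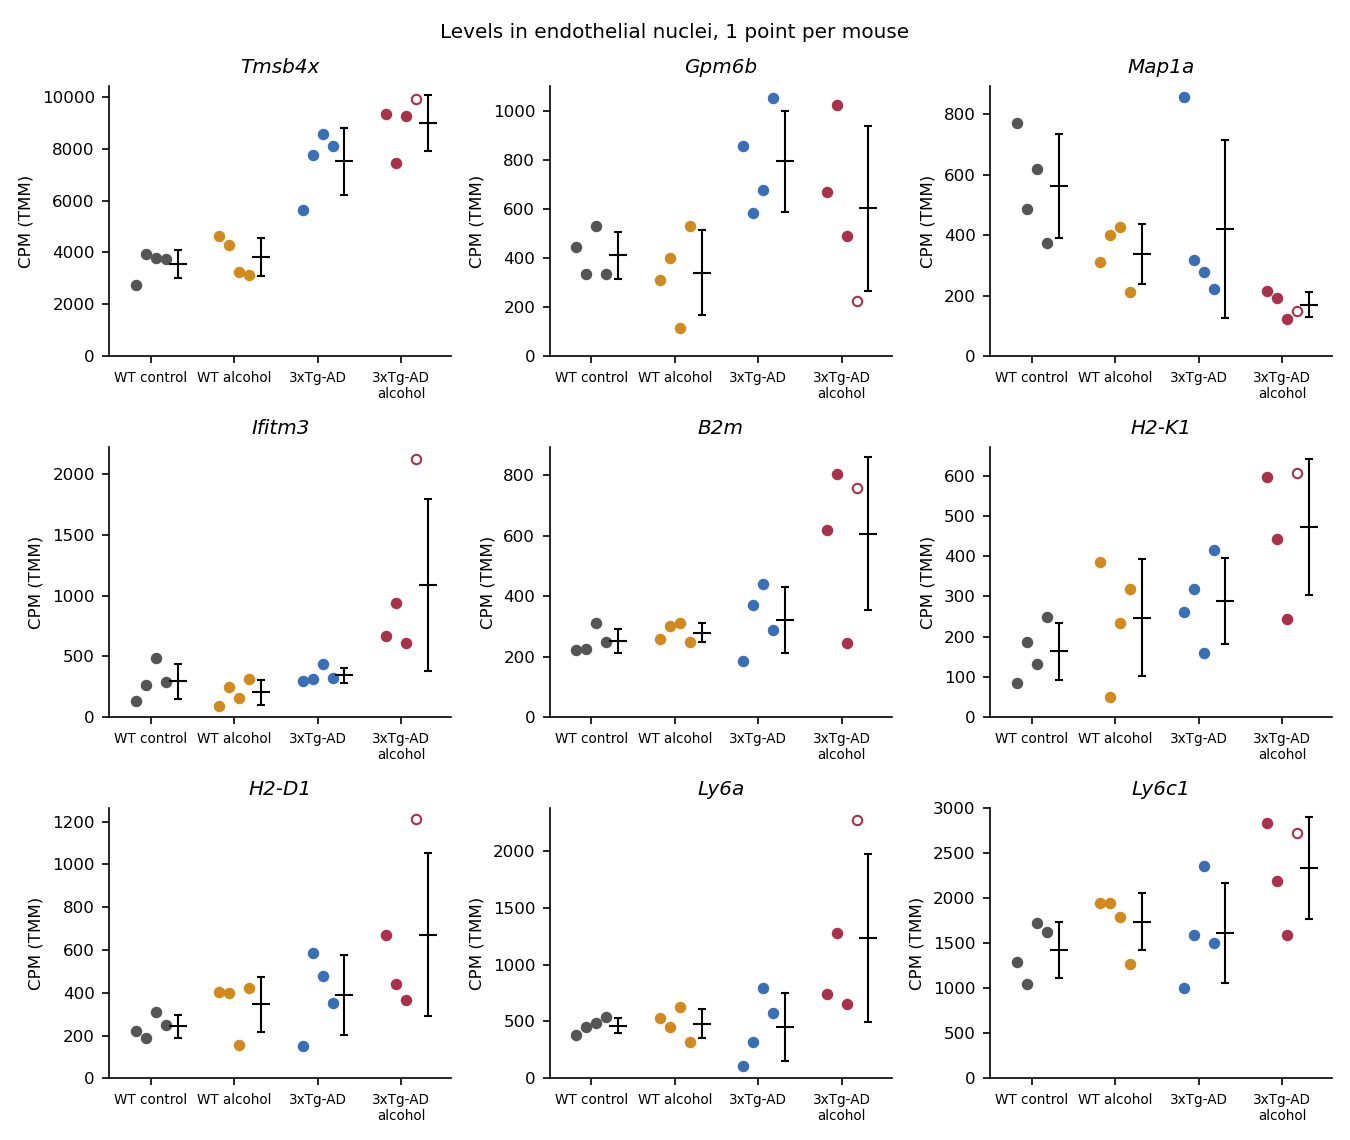
Level of 9 genes in the endothelial nuclei of each mouse, in TMM-scaled CPM on a linear axis, with the mean ± SD of 4 mice per group. The open circle is 3xTg-AD alcohol mouse 34, which was left out of the tests. Tmsb4x separates the genotypes without overlap, Ifitm3 is highest in the 3xTg-AD alcohol mice, and Map1a is lowest there.

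Of the wider list of 45 interferon and MHC class I genes, 7 passed the filter, which includes the 6 above and Ly6e. All 7 were above 0 in 3xTg-AD alcohol mice relative to WT controls, with a median of 1.07 against -0.00 over all 494 genes, of which 247 were above 0. Of the 7, 1 was called, against 0.607% of all genes, and 6 of the 7 are the genes that the study had chosen on these samples. At an unadjusted p under 0.05 and higher, the 7 genes compare with 28 of all 494 (5.67%). Ifitm3 and B2m passed the filter only with libraries of 3xTg-AD alcohol mice, where their levels were high. H2-K1 passed with libraries of that and of other groups, and was tested in 13 of 15 fits that left out 1 mouse. The counts and the median of this list are therefore a description. In WT alcohol mice relative to WT controls, 6 of the 7 were above 0, with a median of 0.28, and none had an unadjusted p under 0.05. Ly6e, an antigen related to Ly6a, differed by 0.68 ± 0.28 (edgeR adjusted p = 0.308) and had a negative sign when nuclei with any UMI of the excluded markers were left out, a fit of 9 mice. The receptor Ifnar1 was below the filter, at 159.6 CPM over all mice. The 10 microglia and macrophage markers summed to 154 to 277 CPM in WT controls and 184 to 378 CPM in 3xTg-AD alcohol mice. The 22 endothelial markers outside the rule, which include Ly6a and Ly6c1, summed to 5783 to 9014 CPM in WT controls, 6379 to 10923 CPM in WT alcohol mice, 4607 to 11216 CPM in 3xTg-AD mice, and 7851 to 16025 CPM in 3xTg-AD alcohol mice. The part of either list in these results was not tested.

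Map1a, a microtubule-associated protein of neurons, was the one gene that edgeR called lower, and it lies at chr2:121289600-121310832, plus strand. Its level was 772.7, 486.1, 621, and 375 CPM in WT controls 26, 27, 28, and 36, and 312.6, 400.1, 428.8, and 212 CPM in WT alcohol mice 6, 7, 17, and 18. It was 857.1, 318.8, 279.2, and 223.6 CPM in 3xTg-AD mice 12, 13, 14, and 21, and 214.7, 193.8, 122.6, and 151.3 CPM in 3xTg-AD alcohol mice 4, 31, 33, and 34. The last group lay below all WT controls and all 3xTg-AD mice, and overlapped the WT alcohol mice. Map1a fell by 1.67 on the log2 scale relative to WT controls (SE 0.42, edgeR adjusted p = 0.0477), against -0.49 in all other nuclei (edgeR adjusted p = 0.122). The gene was called in 3 of 15 fits that left out 1 mouse, and the 2 highest mice, WT control 26 and 3xTg-AD mouse 12, were among the libraries high in Gm42418. Without the 3 libraries Map1a stood at -1.41 (edgeR adjusted p = 0.239), and with the Gm42418 share as a covariate at -0.84 (edgeR adjusted p = 0.686). Its pooled level in endothelial nuclei, 388 CPM, was 0.983 times that of the other nuclei, and the glutamatergic marker list summed to 3161 to 4591 CPM in WT controls and 2924 to 3619.9 CPM in 3xTg-AD alcohol mice. The part of neuronal RNA in this result was not tested.

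Few genes of the barrier itself could be tested. In 3xTg-AD alcohol mice relative to WT controls, where 0.607% of all tested genes were called, 9 of 30 listed transporters were tested, none was called, 4 were above 0, and their median was -0.08. Slc7a5 had the smallest p of them, at 0.84 ± 0.37 (edgeR adjusted p = 0.334), with 223.2, 261.8, 221.8, and 500.04 CPM in WT controls 26, 27, 28, and 36 and 477.1, 498.4, 613, and 908 CPM in 3xTg-AD alcohol mice 4, 31, 33, and 34. Without the 3 libraries high in Gm42418 it stood at 0.51, and with the Gm42418 share as a covariate at 0.22. Slc3a2, which encodes the heavy chain that Slc7a5 needs, stood at 0.62 ± 0.41 (edgeR adjusted p = 0.703), but at 0.25 without WT control 26, 0.37 without 3xTg-AD alcohol mouse 33, and 0.02 without the 3 libraries. Slc2a1 stood at -0.43 ± 0.34 (edgeR adjusted p = 0.783). Of the 24 junction genes 3 were tested, at -0.56 for Ctnnb1, -0.44 for Tjp1, and -0.10 for Rapgef4, and none was called (edgeR adjusted p = 0.742 for Ctnnb1 and 0.838 for Tjp1). Without 3xTg-AD alcohol mouse 33 Ctnnb1 stood at -0.26 and Tjp1 at -0.19, and with the Gm42418 share as a covariate at -0.99 and -0.20. Tjp1 also moved to -0.71 without 3xTg-AD alcohol mouse 4, to -0.29 without WT control 26, and to -0.11 without the 3 libraries. Ocln, Cdh5, Esam, and Lsr had too few UMIs for the filter and were not tested.

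Other groups of vessel genes gave similar counts. Of 28 genes of VEGF, angiopoietin, and Notch signaling 5 were tested, with a median of 0.18, and Id3 stood at 0.51 ± 0.31 (edgeR adjusted p = 0.665). Of 25 endothelial transcription factors 5 were tested, all below 0 with a median of -0.19, and Klf2 stood at -0.60 ± 0.39 (edgeR adjusted p = 0.688), with -1.13 without 3xTg-AD alcohol mouse 4, -0.30 without 3xTg-AD alcohol mouse 33, and -1.42 with 0 UMIs of the excluded markers. Of 20 basement membrane and integrin genes 4 were tested, with a median of 0.28, and Bsg, the glycoprotein basigin, stood at 0.61 ± 0.24 (edgeR adjusted p = 0.292), a log2 value that fell to 0.20 with 0 UMIs of the excluded markers. Of 23 amyloid-handling genes 4 were tested, with a median of 0.12, and App stood at -0.39 ± 0.25 (edgeR adjusted p = 0.688). Of 67 cytosolic ribosomal protein genes 65 were tested, 50 of them above 0 with a median of 0.12, and none was called. At the 0.607% of all tested genes called in this comparison, counts of 0 in lists of these sizes do not set them apart. The heat shock gene Hspb1, one of the 15 leading genes, stood at 1.39 ± 0.38 (edgeR adjusted p = 0.0831), with 954.1 CPM in 3xTg-AD alcohol mouse 4 and 227 to 470.7 CPM in the other 3 mice of that group, against 133.1 to 291.7 CPM in WT controls.

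**Figure D5:**
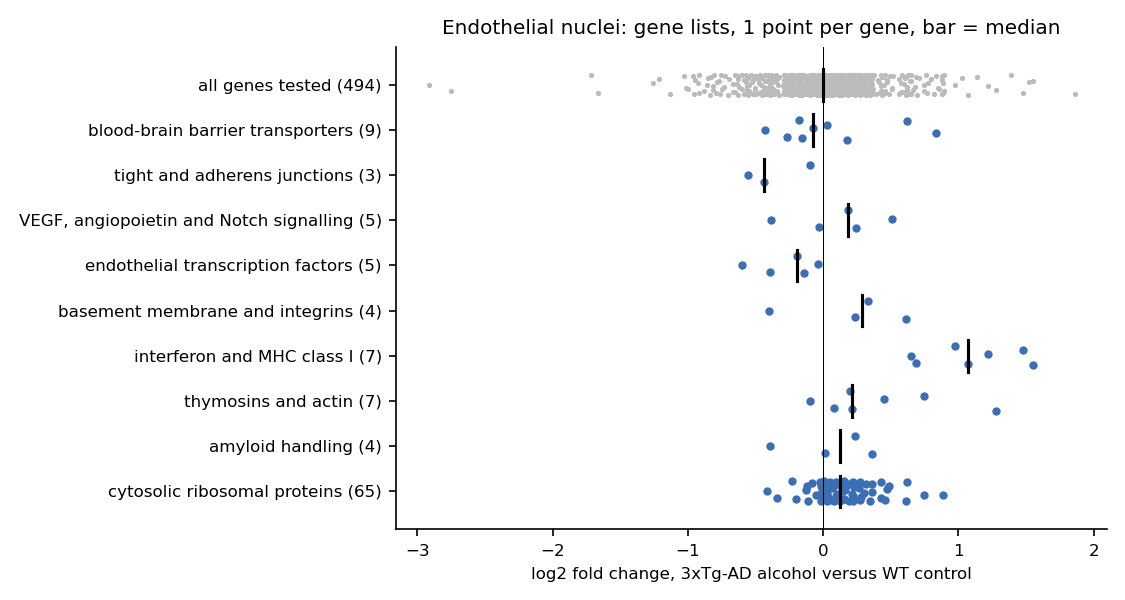
Log2 fold change of the tested genes of each list in 3xTg-AD alcohol mice relative to WT controls, with 1 point per gene and a bar at the median of the list. The 7 interferon and MHC class I genes lie above 0, with a median of 1.07, and the 3 junction genes and 5 transcription factors lie below 0, with medians of -0.44 and -0.19. A gene could pass the filter on the level of 1 group, so these positions are a description.

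Of the comparisons by alcohol, the average over genotype gave calls by DESeq2, and none gave calls by edgeR. In WT alcohol mice relative to WT controls edgeR called 0 of 494 genes (0.0%), with 4 higher and 18 lower under an unadjusted p of 0.05, and 0 by DESeq2. In 3xTg-AD alcohol mice relative to 3xTg-AD mice edgeR called 0 (0.0%), with 39 genes under an unadjusted p of 0.05, and 0 by DESeq2. Averaged over genotype edgeR called 0 (0.0%), with 51 under an unadjusted p of 0.05, whereas DESeq2 called 3 lower genes, Bc1, Lars2, and Gm42418. The levels of all 3 were highest in the 3 libraries that stood apart. Without these libraries, in a fit added after seeing the data, DESeq2 called Gm42418 alone, at -0.83 in place of -2.29 on the log2 scale (DESeq2 adjusted p = 0.0229), and Bc1 and Lars2 stood at -0.40 and -0.74 (DESeq2 adjusted p = 0.934 for both). The interaction of genotype and alcohol gave 0 calls by edgeR (0.0%), with 20 at an unadjusted p under 0.05 and 0 by DESeq2, and its smallest adjusted p, 0.308, belonged to Rpl22, a ribosomal protein gene. By genotype, the difference between the change in endothelial and in other nuclei gave 0 calls by edgeR (0.0%), with 26 at an unadjusted p under 0.05 and a smallest adjusted p of 0.777 for Rpl36a.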

How the data were processed

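Nuclei of the medial PFC of 16 mice were profiled with 10x Genomics single-nucleus RNA-Seq. The authors aligned reads to mm10 with Cell Ranger 6.1.1, which uses STAR, per the submitters' processing notes, and deposited raw UMI counts of 19999 genes in 114512 nuclei, with no normalization. Nuclei took their mouse and group from the sample names. The limits of the authors' filter on nuclei are not given in the sources used here, and no doublet caller was run. The rule removes nuclei with more than 1 UMI of the neuronal or of the other excluded markers. It kept 130 nuclei with 1 neuronal UMI and 58 with 1 UMI of the other markers, so nuclei with RNA of several cell types can remain. The deposited counts hold between 9622031 and 17544364 UMIs per mouse.

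The members and gene lists were chosen with earlier results of these data known. UMIs of the endothelial nuclei were summed per mouse for mice with at least 10 such nuclei (15 of 16), filtered with filterByExpr at a minimum count of 10, scaled by TMM, and tested with edgeR 4.0.16 (glmQLFit and glmQLFTest, limma 3.58.1, statmod 1.5.0, R 4.3.3) over 4 groups without covariates, with Benjamini-Hochberg adjustment over all 499 tested genes and calls at 0.05. DESeq2 1.42.0 was an alternative. All other nuclei of the same mice were summed and tested on the same genes, and a fit of both sums tested the difference of the change. The fits were tested on simulated data. Shares were compared by exact permutation over mice (Python 3.11.15, NumPy 2.4.6, SciPy 1.17.1, pandas 2.3.3, and matplotlib 3.10.9). Each p-value sets a difference against the spread between mice. Mouse and library are the same unit here, so that spread also holds counting error and differences between libraries. Named are the genes of the rule, cell type markers, genes called in a contrast, up to 4 genes of each list by smallest p, the 6 genes the study had chosen, and the 15 genes with the highest ratio over other nuclei at 100 or more UMIs. Promoter sequences came from RefSeq and gene positions from GENCODE, both on GRCm38, the build of mm10.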

Additional observations from a re-analysis of the deposited data

Results flagged for a closer look

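In 6 of 72 sets of 4 mice of 1 group, 1 mouse lay so far from the other 3 that its gap to the nearest of them exceeded Dixon's 95% critical value for 4 samples. Chance alone marks about 1 set in 20. Hemoglobin took 14.25% of the endothelial UMIs in 3xTg-AD alcohol mouse 31, against 0 to 1.496% in the other 3 mice of the group. Gm42418 took 3.786% in 3xTg-AD mouse 12, against 0.784% to 0.989%. Map1a stood at 857.1 CPM in the same mouse, against 223.6 to 318.8 CPM, and Ifitm3 stood at 438.8 CPM in 3xTg-AD mouse 14, against 298.1 to 319.5 CPM. Tmsb4x stood at 2747 CPM in WT control 26, against 3750.0 to 3927 CPM, and H2-D1 stood at 155.9 CPM in WT alcohol mouse 17, against 400.1 to 424 CPM. The low Tmsb4x of WT control 26 and the high Map1a of 3xTg-AD mouse 12 were measured in libraries that also had high Gm42418, and its part in these values was not tested.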

How the results depend on the processing

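No paired analysis was possible because the numbers in the labels name single mice and no number is shared between groups. Tmsb4x by genotype was called in all 10 alternatives (1.02 to 1.15 on the log2 scale) and in 15 of 15 fits without 1 mouse (1.07 to 1.19). The number of called genes depended on the choices. In 3xTg-AD alcohol mice relative to WT controls (3 called) it was 1 with DESeq2 size factors, 1 with no filter on low counts, 0 with at least 5 marker UMIs per nucleus, 1 with 0 UMIs of the excluded markers, 0 with the Gm42418 share as a covariate, and 1 to 6 without 1 mouse (6 without 3xTg-AD mouse 12, and 1 when any of these was left out, 3xTg-AD mice 13 or 21, 3xTg-AD alcohol mice 4 or 31, WT alcohol mice 6, 7, or 17, or WT controls 26 or 27). In 3xTg-AD mice relative to WT controls (1) it was 0 with DESeq2, 0 with at least 5 marker UMIs, 2 with 0 UMIs of the excluded markers, and 0 to 2 without 1 mouse (0 without 3xTg-AD mice 14 or 21 or WT controls 26 or 28, and 2 when 3xTg-AD mouse 12 was left out). Between the genotypes exposed to alcohol (2) it was 1 with at least 5 marker UMIs, 0 with 0 UMIs of the excluded markers, and 1 to 4 without 1 mouse (4 without 3xTg-AD alcohol mouse 33, and 1 without WT alcohol mouse 6). By genotype (3) it was 1 with at least 5 marker UMIs, 1 with 0 UMIs of the excluded markers, and 1 to 7 without 1 mouse (7 without 3xTg-AD mouse 12, and 1 when 3xTg-AD mouse 21 was left out, or 3xTg-AD alcohol mouse 31, WT alcohol mice 7 or 17, or WT controls 27 or 36). For alcohol averaged over genotype (0) it was 3 with DESeq2, 1 with at least 5 marker UMIs, and 2 without the 3 libraries high in Gm42418, which also gave 2 in 3xTg-AD alcohol mice relative to 3xTg-AD mice (0). In WT alcohol mice relative to WT controls (0) it was 0 to 1 without 1 mouse (1 without 3xTg-AD mouse 12). DESeq2 without the 3 libraries high in Gm42418 was a fit added after seeing the data. It called 1 gene in place of 3 for alcohol averaged over genotype, and 1 in place of 0 in 3xTg-AD mice relative to WT controls. By genotype it called 2 in place of 3, keeping Tmsb4x and Rpl29 and losing Gpm6b. In 3xTg-AD alcohol mice relative to WT controls it called 2 in place of 3. The cause of these shifts was not tested, beyond what the stricter rules leave. At least 5 marker UMIs leave 271 nuclei and 14 mice, and 0 UMIs of the excluded markers leave 171 nuclei and 9 mice, 3 of them 3xTg-AD mice and 2 in each other group.

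Ifitm3 and Map1a relative to WT controls were each called in 3 of 9 alternatives, with 0.794 and -0.842 under the Gm42418 covariate, and Ifitm3 stood at 1.83 (edgeR adjusted p = 0.0215) with all 16 mice, chosen after seeing the data. Ifitm3 between the genotypes exposed to alcohol was called in 9 of 9 alternatives and lost without WT alcohol mouse 6 (1.6, edgeR adjusted p = 0.126). Gpm6b by genotype was called in 8 of 15 fits without 1 mouse and in 5 of 9 alternatives, and Ifitm3 by genotype in 6 of 15 and 4 of 9. Ly6e had the opposite sign in the 9 mice fitted with 0 UMIs of the excluded markers, at -0.193 relative to WT controls and -0.301 by genotype, and Ctnnb1 by genotype stood at 0.015 without the 3 libraries high in Gm42418. The share of endothelial nuclei in 3xTg-AD alcohol relative to WT alcohol mice ranged from -0.0415 to 0.0337 points without 1 mouse, and its sign turned without 3xTg-AD alcohol mice 33 or 34 or WT alcohol mouse 6. For alcohol averaged over genotype the share ranged from -0.118 to -0.0699 points, and it passed the threshold without WT alcohol mouse 6 (exact permutation test, adjusted p = 0.0239). Depth also limits these results, since 499 of 14490.0 genes detected in the endothelial nuclei could be tested.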
